A study of Rattus norvegicus with 20 samples.

Results

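Ephrin-A ligands and EphA receptors were followed in cortical neurons of aged rats after stroke, through the array probes of 9 genes: the ligand genes Efna1, Efna2, Efna3, Efna4 and Efna5 and the receptor genes Epha3, Epha4, Epha5 and Epha7. Members were taken by name alone: every probe that is not a control and whose gene name, accession, older symbol or, for the 2 Efna3 probes, gene description belongs to one of these genes, which gave 13 of the 41012 probes on the array, 6 for ligands and 7 for receptors. The samples came from 10 rats aged 2 years, 5 in a day 21 cohort and 5 other animals in a day 7 cohort, and the labels name no strain or sex. Each rat had received 2 fluorescent tracers, both forms of cholera toxin B, at 1 cortical site beside the infarct, the later one placed after a survival of 21 or 7 days, and neurons were captured by laser 7 days after that. From each animal a pool of about 300 neurons labelled sprouting and a pool labelled non-sprouting was amplified in 2 rounds with T7 polymerase and hybridised together on 2 Agilent arrays, a forward array whose Cy5 channel held sprouting neurons and a dye-swap array with the dyes exchanged. There was no unlesioned or young group among these samples, so both cell types in every comparison came from aged brain after stroke.

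Ephrin-A ligands are held at the cell surface by a lipid anchor, and EphA receptors are receptor tyrosine kinases that bind them when cells or axons touch. Binding sends a forward signal into the receptor-bearing cell, which often makes a growth cone collapse or turn away, and can send a reverse signal into the ligand-bearing cell. In the developing brain the family sets up topographic maps and guides corticospinal and thalamocortical axons, and in the adult it acts on dendritic spines and on astrocyte contacts. In mice, ephrin-A5 from reactive astrocytes has been described as a brake on axonal sprouting after cortical stroke.

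Values are log2 ratios of sprouting over non-sprouting neurons, averaged over the 2 arrays of an animal, so that a positive value means a higher signal in sprouting neurons. They are listed for replicates 1 to 5 of each day. A level is the log2 signal of 1 cell type after scaling between arrays, and no probe's level is set against another probe's. The share of probes well above background ran from 69.8% to 95.5% in red and from 20.8% to 95.2% in green. Across probes, which are not independent replicates, the 2 ratios of an animal had a lowest correlation of 0.0463, in day 21 replicate 4, and a highest of 0.89, in day 7 replicate 1. The captured pools carried neuronal markers, with 9 of 10 well above background in at least 36 of the 40 readings a probe has (2 cell types on 20 arrays). Markers of astrocytes (8 of 9), oligodendrocytes (7 of 8), microglia and macrophages (8 of 10) and blood vessels (7 of 9) reached the same share, so signal of those markers was present in the pools too. How many of all probes reached it was not counted. In such pools fewer cells of a type and less RNA per cell cannot be told apart. The p-values measure the spread between animals, and 5 animals per day limit the precision.

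Of the 13 probes, 10 passed the filter on dim signals, and these covered Efna2, Efna3, Efna5, Epha4, Epha5 and Epha7. The filter could be met at either day, and 8 of the 10 met it at both. The dimmer Epha4 probe met it at day 21 alone and Efna5 at day 7 alone. Efna3, Epha4, Epha5 and Epha7 each had a brighter and a dimmer probe. The match of both probes to Efna3 rests on the files' description and is less certain than the others. The single probes of Efna1, Efna4 and Epha3 did not pass. No spot of the 13 probes was saturated or marked as an outlier.

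The main comparison asked whether sprouting neurons differed from non-sprouting neurons of the same animal. No ephrin-A or EphA probe passed an adjusted p of 0.05 in limma at day 21 or at day 7, nor for the mean of both days or the difference between them, against 0% of the 34225 probes tested in each of these 4 comparisons. At an unadjusted p under 0.05, 0 of the 10 probes passed at day 21 (4.76% of all probes) and 0 at day 7 (6.12%). For the difference between the days 0 passed (4.09%, with 1.72% upward and 2.38% downward). For the mean of both days 1 did (6.49%, with 3.3% upward and 3.18% downward), the dimmer probe of Epha4. Estimates lay between -0.13 and 0.11 at day 21 and between -0.079 and 0.096 at day 7. The median over the 10 probes was 0.011 at day 21, against 0.00052 over all probes, and -0.026 at day 7, against -0.0026 over all probes. Read through the brightest tested probe of each gene, the median of the 6 genes was -0.0105 at day 21 and -0.0261 at day 7. The widest 95% interval was that of the dimmer Epha5 probe, -0.45 to 0.28 at day 21, and the narrowest that of Efna2, -0.049 to 0.095 at day 21.

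**Figure D1:**
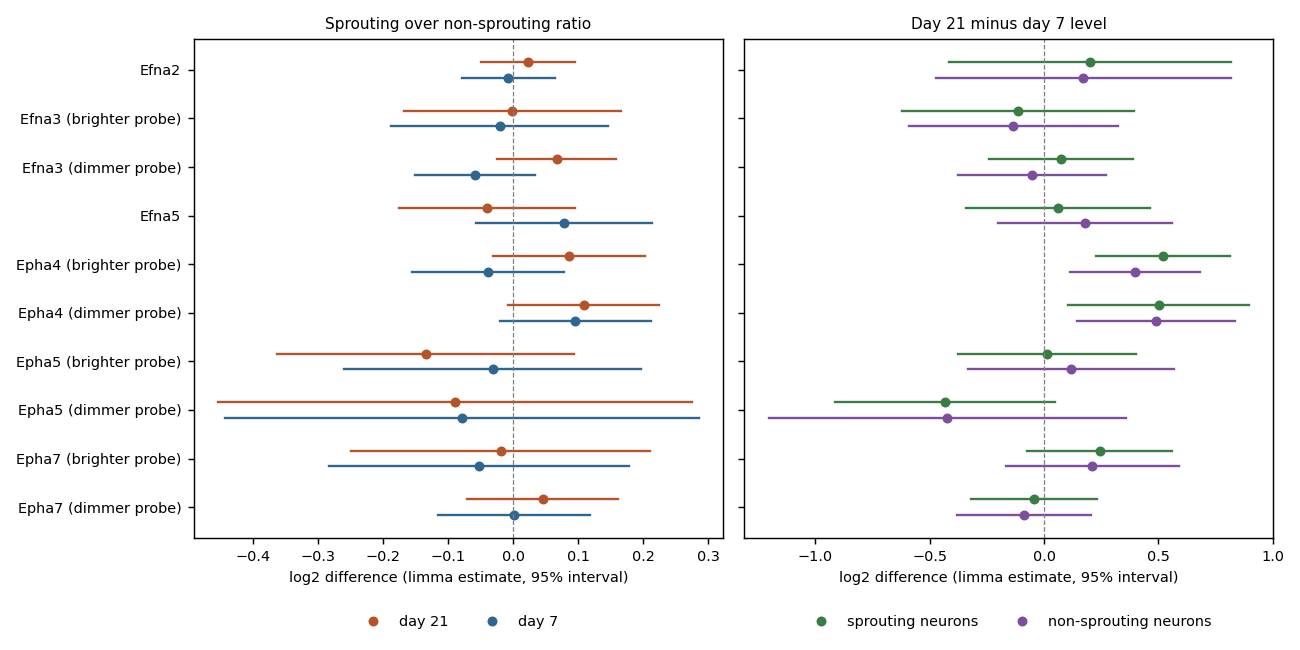
Limma estimates with 95% intervals for the 10 tested probes (rows), on the left the log2 sprouting over non-sprouting ratio at day 21 and day 7, on the right the log2 difference in level between day 21 and day 7 in sprouting and non-sprouting neurons. Every ratio interval includes 0, and the brighter Epha4 probe has level intervals above 0 in both cell types, at 0.52 in sprouting and 0.40 in non-sprouting neurons. The dimmer Epha4 probe also lies above 0, but it met the filter through day 21 alone, so its level difference is no support.

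Among the ligands, Efna2, which encodes ephrin-A2, a ligand best known from retinal and cortical maps, varied least. Its ratios were 0.061, 0.019, 0.018, 0.069 and -0.052 at day 21. At day 7 they were -0.075, -0.023, -0.0098, 0.0075 and 0.064. The animals of both days straddled 0 and overlapped, with a mean of 0.023 ± 0.048 at day 21 and -0.0073 ± 0.051 at day 7 (SD, n = 5 each). Limma's adjusted p was 0.952 at day 21 and 0.979 at day 7. The Efna2 probe was well above background in 37 of 40 readings.

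Efna3 encodes ephrin-A3, which in the mouse hippocampus sits on astrocytes and meets EphA4 on dendritic spines. Its brighter probe had ratios of 0.10, -0.10, 0.079, 0.18 and -0.27 at day 21. At day 7 they were -0.32, 0.12, -0.0050, -0.0090 and 0.11. Day 21 replicate 5 and day 7 replicate 1 lay below the other animals, and the means were -0.0015 ± 0.18 at day 21 and -0.021 ± 0.18 at day 7 (SD, n = 5 each). The dye-swap ratio of this brighter probe exceeded the forward ratio in 10 of 10 animals, averaging 0.076 against -0.099. That gap of 0.18 compares with a median gap of 0.079 over all probes. The dimmer probe was between -0.092 and 0.19 at day 21, with 4 of 5 animals above 0, and between -0.10 and -0.025 at day 7, where all 5 animals were below 0. The sign followed the dye, since the forward arrays were above 0 in all 5 of these day 7 animals (mean of 0.029) and the dye-swap arrays below 0 in all 5 (mean of -0.15). An unbroken sign at day 7 was seen in 1 of the 10 probes, against 11.2% of all probes tested. Its day 7 mean of -0.059 ± 0.035 (SD, n = 5) had an exact sign-flip p of 0.0625, which is the smallest that 5 animals can give, and an adjusted p of 0.85 in limma. The day 21 minus day 7 difference of that probe was 0.13 ± 0.059 (SE), with an unadjusted p of 0.0564 and an adjusted p of 0.921 in limma. On forward arrays alone that difference was 0.027 and on dye-swap arrays alone 0.23.

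Efna5 encodes ephrin-A5, the ligand described above as a brake on sprouting in mice. Its ratios were 0.11, -0.034, 0.12, -0.30 and -0.10 at day 21. At day 7 they were 0.12, 0.18, -0.057, 0.019 and 0.13. Thus 2 of 5 animals were above 0 at day 21 and 4 of 5 at day 7, and the days overlapped. The mean was -0.041 ± 0.17 at day 21 with an adjusted p of 0.955 in limma, and 0.077 ± 0.095 at day 7 with an adjusted p of 0.868 (SD, n = 5 each). The lowest value, in day 21 replicate 4, came from its dye-swap array at -0.58, while its forward array gave -0.022. That dye-swap array had the fewest probes above background in green, at 20.8%. Over the 10 animals the dye-swap ratio exceeded the forward ratio in 9, with an average of 0.10 on dye-swap and -0.064 on forward arrays. Against the median gap of 0.079 over all probes, the Efna5 gap was 0.17. Within the only scan date that held both days, 1 day 21 animal and 2 day 7 animals, the day 21 minus day 7 difference of the Efna5 ratio was 0.040, against -0.12 over all 10 animals, a change of sign.

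Efna1 and Efna4 encode further ligands, and with Efna3 they lie side by side in the RefSeq annotation of the GRCr8 rat assembly. Their probes are described only. The Efna1 probe was well above background in 12 of 40 readings, and its ratios ran from -0.080 to 0.13 over the 10 animals. The forward ratio of Efna1 was below 0 in 10 of 10 animals and the turned dye-swap ratio above 0 in 9 of 10, so the sign of a single array followed its dye. The Efna4 probe was above background in 17 of 40 readings, with its highest ratio, 0.22, in day 21 replicate 4 and its lowest, -0.23, in day 7 replicate 4. On its dye-swap array it lay above its forward array in 10 of 10 animals.

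**Figure D2:**
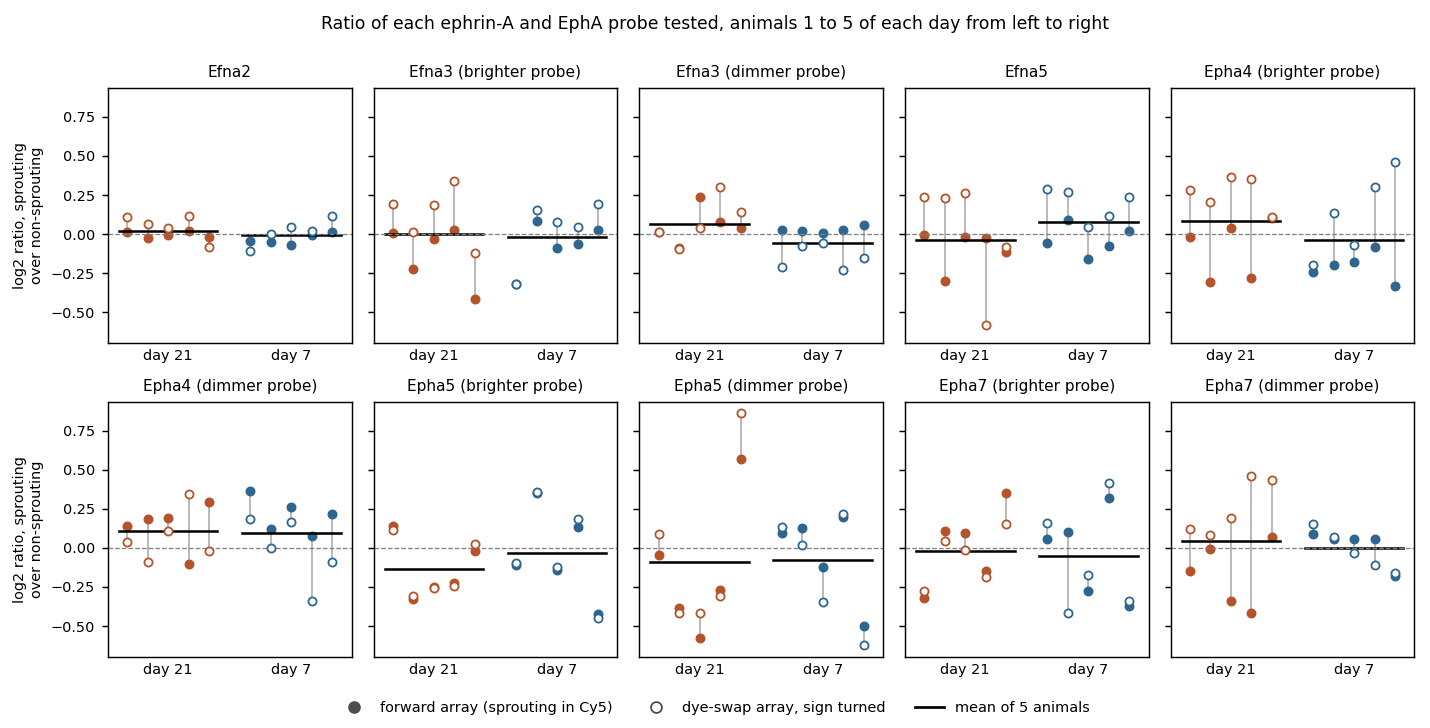
Log2 sprouting over non-sprouting ratio (vertical axis) of each tested probe, with animals 1 to 5 of day 21 left of those of day 7, filled points for forward arrays, open points for dye-swap arrays with the sign turned, and black bars for the mean of 5 animals. The filled and open points of the brighter Epha5 probe nearly coincide in every animal, while those of Efna5 and the brighter Epha4 probe are spread around 0 with the open points mostly on top.

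Among the receptors, Epha3 did not pass the filter. It encodes a receptor with high affinity for ephrin-A5 in retinal axons of the chick, and its probe was well above background in 20 of 40 readings. The lowest Epha3 ratio was -0.28, in day 21 replicate 5, and the highest 0.42, in day 7 replicate 1. In that day 7 animal both arrays lay on the same side, at 0.40 forward and 0.44 dye-swap, and both cell types were above background on both arrays. The other 9 animals lay between -0.28 and 0.14, so the high value was that of 1 animal.

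Epha4 encodes a receptor that binds both ephrin classes and limits axon growth in the spinal cord and cortex of rodents. Its brighter probe had ratios of 0.13, -0.049, 0.20, 0.039 and 0.11 at day 21. Day 7 animals had -0.22, -0.029, -0.12, 0.11 and 0.065. The days overlapped, with 4 of 5 animals above 0 at day 21 and 2 of 5 at day 7, and the means were 0.085 ± 0.095 at day 21 and -0.039 ± 0.13 at day 7 (SD, n = 5 each). The day 21 minus day 7 difference of 0.12 ± 0.075 (SE) had an exact permutation p of 0.143 and an adjusted p of 0.921 in limma. The sign of this probe depended on the dye: forward arrays averaged -0.15, with 8 of 10 animals below 0, and dye-swap arrays averaged 0.20, with 8 of 10 above 0.

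The dimmer Epha4 probe, above background in 24 of 40 readings, had ratios of 0.086, 0.047, 0.15, 0.12 and 0.14 at day 21. Day 7 animals had 0.27, 0.061, 0.21, -0.13 and 0.062. It was above 0 in all 5 animals at day 21, which 6.26% of all probes tested shared in either direction, and in 4 of 5 at day 7. The mean over both days was 0.10 ± 0.037 (SE), above 0 in 9 of 10 animals. That count was reached upward by 1 of the 10 ephrin-A and EphA probes and by 1.86% of all probes. Its unadjusted p was 0.0197 and its adjusted p 0.743 in limma, so it did not pass. Forward arrays alone gave 0.17 and dye-swap arrays alone 0.029, with unadjusted p of 0.00175 and 0.626 and adjusted p of 0.144 and 0.825 in limma. Both Epha4 probes had positive means at day 21, whereas at day 7 they had opposite signs. Across the 10 animals their ratios had a Pearson r of -0.504 (permutation p of 0.14, adjusted 0.38) and a Spearman rho of -0.248 (permutation p of 0.491). The r was 0.16 without the 2 animals farthest from the median, 0.761 within day 21 and -0.936 within day 7, so its sign was not stable.

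Epha5, which encodes a receptor abundant in forebrain neurons and involved in thalamocortical and synaptic targeting, had the most repeatable ratios of the family. Its brighter probe gave 0.13, -0.32, -0.25, -0.23 and 0.0031 at day 21. At day 7 it gave -0.10, 0.36, -0.13, 0.16 and -0.44. Animals of the same day thus went opposite ways, with 2 of 5 above 0 at each day, and the means were -0.13 ± 0.19 at day 21 and -0.031 ± 0.30 at day 7 (SD, n = 5 each). The adjusted p was 0.915 at day 21 and 0.974 at day 7 in limma, and the day 21 minus day 7 difference was -0.10 ± 0.15 (SE). Within the scan date that held both days that difference was 0.27, of the opposite sign.

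For this probe the forward and dye-swap arrays of an animal gave nearly the same ratio. In day 7 replicate 5 they gave -0.43 and -0.45, in day 7 replicate 2 they gave 0.35 and 0.36, and in day 21 replicate 2 they gave -0.32 and -0.31. Across the 10 animals, the correlation between the 2 arrays was 0.995, given as a description, while the median over all probes tested was 0.505 and 99.6% of probes lay lower. This probe was well above background in all 40 readings, and no share was taken among probes of like brightness. The SD of the ratio over the 10 animals was 0.24, against a median of 0.143 over all probes, with 77.8% of probes lower. The Epha5 ratio therefore differed between animals by far more than between the arrays of 1 animal. These arrays share the amplified RNA of the 2 pools, so they do not separate an animal's neurons from the capture and amplification of its pools, and the source of the spread was not tested.

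The dimmer Epha5 probe gave 0.022, -0.40, -0.50, -0.29 and 0.71 at day 21. At day 7 it gave 0.11, 0.075, -0.23, 0.21 and -0.56. Its arrays also paired, with a correlation of 0.946, and it was above background in 39 of 40 readings. In 9 of the 10 animals both Epha5 probes lay on the same side of 0. The exception was day 7 replicate 1, at 0.11 for the dimmer and -0.10 for the brighter probe. In day 21 replicate 5 the dimmer probe gave 0.71 and the brighter probe 0.0031, the widest gap between them. The probes had a Pearson r of 0.676 over the animals (permutation p of 0.0301, adjusted over 19 relations 0.286) and a Spearman rho of 0.83 (permutation p of 0.00435, adjusted 0.0826). Without the 2 animals farthest from the median, r was 0.70. It was 0.708 within day 21 and 0.814 within day 7.

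**Figure D3:**
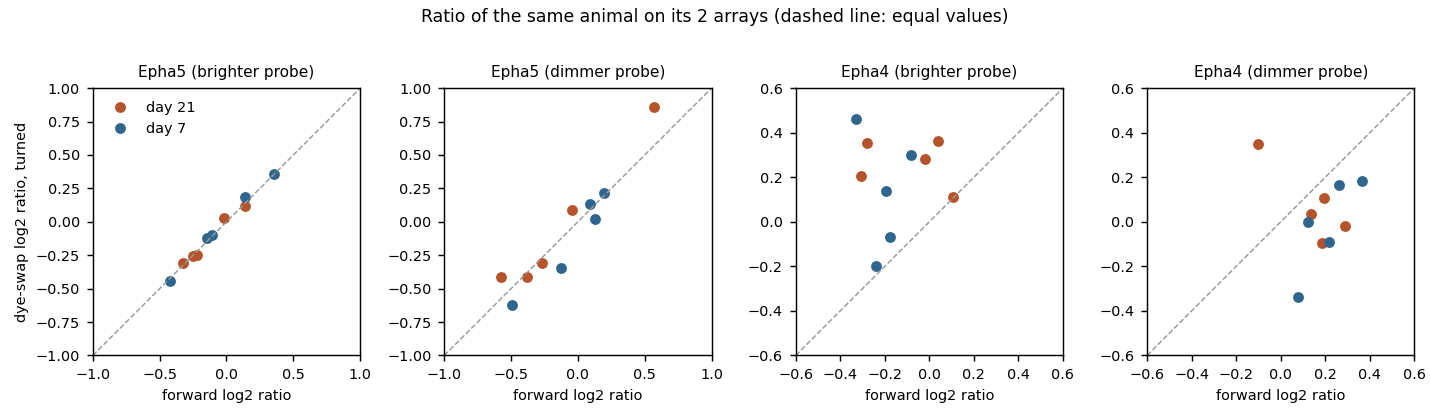
Dye-swap log2 ratio (vertical axis, sign turned) against forward log2 ratio (horizontal axis) for the 10 animals, day 21 and day 7, with a dashed line for equal values. Both Epha5 probes follow the line, with correlations of 0.995 and 0.946, while the Epha4 probes do not, with correlations of 0.012 and -0.096.

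Epha7, which encodes a receptor that shapes cortical layers and dendrites, had brighter-probe ratios of -0.30, 0.076, 0.040, -0.17 and 0.25 at day 21. At day 7 they were 0.11, -0.16, -0.23, 0.37 and -0.36. The animals spread to both sides of 0 at both days, with means of -0.020 ± 0.22 at day 21 and -0.053 ± 0.29 at day 7 (SD, n = 5 each), and adjusted p of 0.992 and 0.953 in limma. The forward and dye-swap ratios had a correlation of 0.729, with the same sign in 8 of 10 animals. The dimmer Epha7 probe stayed between -0.072 and 0.25 at day 21 and between -0.17 and 0.12 at day 7, and its array pair had a correlation of -0.341. Its dye-swap arrays averaged 0.12 and its forward arrays -0.075, a gap of 0.20 against a median of 0.079 over all probes. The day 21 minus day 7 difference of the brighter probe was 0.033 over all animals and -0.30 within the scan date that held both days.

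The levels asked a different question, whether a probe's signal in a cell type differed between the day 21 and day 7 cohorts. No ephrin-A or EphA probe passed an adjusted p of 0.05 in limma in sprouting or in non-sprouting neurons, against 0% of all probes tested in both. Of the 8 probes that met the filter at both days, 1 had an unadjusted p under 0.05, the brighter Epha4 probe, upward in sprouting (4.67% of all probes tested) and in non-sprouting neurons (5.14%). Those shares include probes that met the filter at 1 day alone, so they are not of a like set. The dimmer Epha4 probe was under that p too, but it met the filter through its day 21 signal alone, so its level is described and not counted. In either direction, 15% of all probes were under that p in sprouting (10.4% downward) and 15.8% in non-sprouting neurons (10.7% downward). All 10 probes had overlapping days in both cell types. Over all probes, day 21 lay above day 7 without overlap in 1.31% and below it in 3.5% in sprouting neurons, and above in 1.49% and below in 4.33% in non-sprouting neurons.

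In sprouting neurons the brighter Epha4 probe had levels of 7.12, 7.34, 7.70, 7.57 and 7.43 at day 21. Their day 7 counterparts were 6.85, 7.13, 6.68, 6.92 and 6.97. The days met only where day 21 replicate 1 lay just under day 7 replicate 2. That day 7 level averaged 2 unlike arrays, 6.476 forward and 7.792 dye-swap, and was well above background on 1 of them. In non-sprouting neurons the levels were 6.99, 7.39, 7.49, 7.53 and 7.32 at day 21, and 7.07, 7.16, 6.80, 6.81 and 6.90 at day 7. There, too, day 21 replicate 1 was the one day 21 animal within the day 7 range. Day 7 replicate 2, again the highest of its day, had 6.672 on its forward and 7.655 on its dye-swap array.

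The day 21 minus day 7 difference of that probe was 0.52 in sprouting neurons (95% interval 0.23 to 0.81) and 0.40 in non-sprouting neurons (0.11 to 0.68). In sprouting neurons the exact permutation p was 0.0159 and limma's unadjusted and adjusted p were 0.00247 and 0.181. In non-sprouting neurons the exact permutation p was 0.0238 and limma's unadjusted and adjusted p were 0.011 and 0.196. The dimmer Epha4 probe, in sprouting neurons, had levels of 6.58, 7.07, 7.16, 6.63 and 7.36 at day 21, and 6.79, 6.27, 6.66, 6.26 and 6.33 at day 7. In non-sprouting neurons the day 21 levels were 6.50, 7.02, 7.01, 6.51 and 7.22, and those of day 7 were 6.51, 6.21, 6.44, 6.39 and 6.27. Replicates 1 and 4 of day 21 fell within the day 7 range in sprouting neurons, while the other 3 lay above it. Its differences were 0.50 in sprouting and 0.49 in non-sprouting neurons. On both arrays it was above background in 3 animals at day 21 and 2 at day 7 in either cell type, so it was tested through day 21 alone, and these differences lend no support to those of the brighter probe. For the brighter probe the ratio, which sets the cell types against each other on the same arrays, differed by 0.12 between the days, as given above.

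Several measures moved with the days. Within the scan date that held both, 1 day 21 animal and 2 day 7 animals, the brighter Epha4 probe differed by 0.18 in sprouting and 0.13 in non-sprouting neurons and the dimmer one by 0.29 and 0.17. With scan date as a random block the differences of the brighter probe were 0.41 and 0.32, with limma's adjusted p at 0.631 and 0.516. The day 21 animal of that scan was replicate 1, and without it no scan date held both days. The brighter probe then differed by 0.60 in sprouting and 0.48 in non-sprouting neurons, with adjusted p of 0.065 and 0.0672 in limma. Over all probes, 96 and 469 then passed an adjusted p of 0.05. Leaving out each animal in turn gave differences of 0.45 to 0.60 in sprouting and 0.35 to 0.48 in non-sprouting neurons. Limma's adjusted p ran from 0.065 to 0.385 and from 0.0672 to 0.385. Astrocyte markers averaged a level of 10.07 to 10.23 at day 21 and 10.18 to 10.6 at day 7 in sprouting neurons, and 9.913 to 10.14 at day 21 and 10.2 to 10.7 at day 7 in non-sprouting neurons. Over all probes tested, 41% had level estimates above 0 in sprouting (median of -0.0604) and 41.3% in non-sprouting neurons (median of -0.0605). Most probes of any kind thus lay below 0, and the marker counts are to be read against that share. Of 9 astrocyte markers, 7 had estimates below 0 in sprouting and 8 in non-sprouting neurons. Microglia and macrophage markers averaged 8.604 to 8.818 at day 21 and 8.842 to 10.79 at day 7 in sprouting neurons, and 8.641 to 8.87 at day 21 and 8.649 to 10.35 at day 7 in non-sprouting neurons. Their estimates were below 0 in 8 of 10 genes in sprouting and 7 of 10 in non-sprouting neurons. Neuronal markers averaged 10.16 to 10.49 at day 21 and 9.91 to 10.39 at day 7 in sprouting neurons, with 6 of 10 estimates above 0. In non-sprouting neurons they averaged 10.25 to 10.78 at day 21 and 9.713 to 10.5 at day 7, with 9 of 10 above 0 and a median of 0.15. Interneuron markers were above 0 in 6 of 7 in sprouting (median of 0.13) and 7 of 7 in non-sprouting neurons (median of 0.30). Vessel markers were below 0 in 7 of 8 in sprouting (median of -0.34) and 6 of 8 in non-sprouting neurons (median of -0.23). Oligodendrocyte markers were below 0 in 5 of 8 in sprouting and 7 of 8 in non-sprouting neurons. In the block fits, animals of 1 scan date had a correlation of 0.492 in sprouting and 0.401 in non-sprouting levels over all probes tested. For the ratio it was -0.0184. Beyond the block fit, the part of scan date in the Epha4 levels was not tested. The part of cell makeup in them was not tested.

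The scaling between arrays also set the size of the Epha4 differences. With both channels taken after loess alone, the brighter probe differed by 0.33 in sprouting and 0.21 in non-sprouting neurons while the median of all probes stood at -0.37 and -0.36. That probe's unadjusted p was then 0.369 in sprouting and 0.592 in non-sprouting neurons in limma. With each channel centred on its 75th percentile it differed by 0.93 and 0.70, and the median of all probes stood at -0.034 and -0.18. Relative to that median the difference was 0.58 in the scaling used here, 0.70 after loess alone and 0.97 after centring in sprouting neurons, and 0.46, 0.56 and 0.88 in non-sprouting neurons. The direction of the brighter probe was upward in each of these 3 scalings. Probes well above background in green made up 20.8% to 85.7% of an array at day 21 and 51.5% to 95.2% at day 7. In red they made up 69.8% to 87.6% at day 21 and 71.1% to 95.5% at day 7. The part of array signal in the Epha4 levels was not tested.

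**Figure D4:**
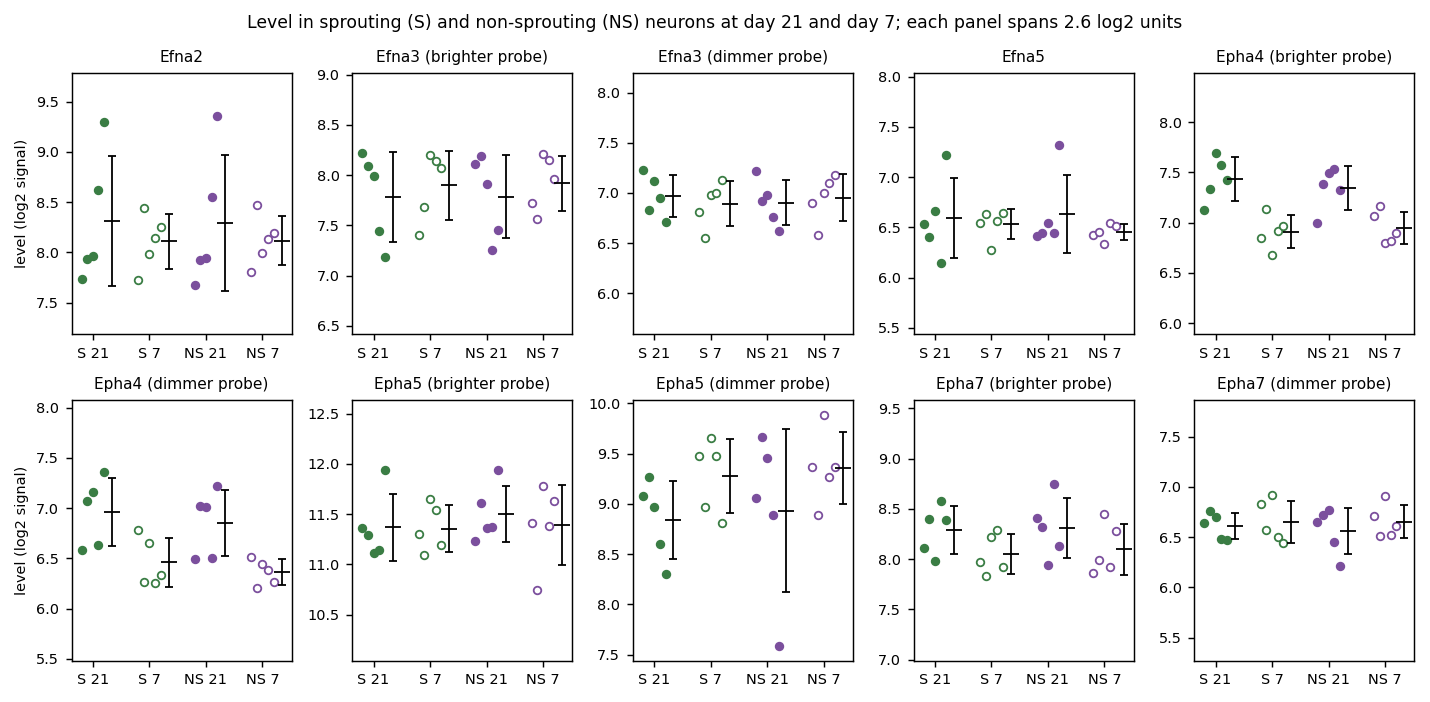
Level (log2 signal after scaling between arrays) of each tested probe in sprouting (S) and non-sprouting (NS) neurons at day 21 (filled) and day 7 (open), with 1 point per animal and a bar for the mean ± SD of 5 animals. The brighter Epha4 probe has higher means at day 21 in both cell types, 7.43 against 6.91 in sprouting and 7.35 against 6.95 in non-sprouting neurons, and panels share a span but not a position on the axis.

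In the order of the 4 conditions, the brighter Epha4 probe had 1 step larger than the larger SD of the pair, between non-sprouting neurons at day 21 and at day 7. The dimmer Epha4 probe had such a step between the days too, which its filter favours. For the other 8 probes no neighbours differed by more than that spread. The brighter Epha5 probe averaged 11.37 ± 0.34 at day 21 and 11.36 ± 0.24 at day 7 in sprouting neurons, and 11.50 ± 0.28 at day 21 and 11.39 ± 0.40 at day 7 in non-sprouting neurons (SD, n = 5 each). Efna2 averaged 8.31 ± 0.65 at day 21 and 8.11 ± 0.27 at day 7 in sprouting neurons, with day 21 replicates 4 and 5 highest at 8.63 and 9.30. The same animals were highest in non-sprouting neurons, at 8.56 and 9.36, but both cell types were read on the same arrays. In replicate 4 the high level came from its dye-swap array, at 9.39 in sprouting and 9.28 in non-sprouting neurons, against 7.86 and 7.83 on its forward array. The dimmer Epha5 probe had the lowest estimate, -0.43 in sprouting neurons (95% interval -0.92 to 0.049) and -0.42 in non-sprouting neurons (-1.21 to 0.36), with limma's adjusted p at 0.366 and 0.534. The brighter Epha5 probe had estimates of 0.013 and 0.12.

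Efna3 and Epha7 levels also overlapped between the days. The brighter Efna3 probe averaged 7.78 ± 0.45 at day 21 and 7.90 ± 0.34 at day 7 in sprouting neurons, and 7.79 ± 0.41 at day 21 and 7.92 ± 0.27 at day 7 in non-sprouting neurons (SD, n = 5 each). The brighter Epha7 probe averaged 8.29 ± 0.24 at day 21 and 8.05 ± 0.20 at day 7 in sprouting neurons, and 8.31 ± 0.30 at day 21 and 8.10 ± 0.25 at day 7 in non-sprouting neurons (SD, n = 5 each). Limma's adjusted p for these Efna3 and Epha7 differences lay between 0.416 and 0.806. Efna5 averaged 6.59 ± 0.40 at day 21 and 6.53 ± 0.15 at day 7 in sprouting neurons, and 6.63 ± 0.39 at day 21 and 6.46 ± 0.082 at day 7 in non-sprouting neurons (SD, n = 5 each). Its day 21 replicate 5 stood highest in both cell types, at 7.22 and 7.32.

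Ratios of different members were set against each other over the 10 animals, 15 pairs between genes and 4 pairs of probes within a gene. After adjustment over the 19 relations, 0 had a permutation p under 0.05 by Pearson's r, which ranged from -0.626 (Efna3 with Epha7) to 0.815 (Efna2 with Efna3) between genes. The Efna2 and Efna3 pair had a permutation p of 0.00417, adjusted 0.0792, and a Spearman rho of 0.661 (permutation p of 0.0434, adjusted 0.275). The r of this pair was 0.924 within day 21 and 0.765 within day 7. Without the 2 animals farthest from the median of Efna2 it was 0.451, though such a cut also narrows the range of the ratios. The ligand Efna5 and the receptor Epha4 had an r of 0.0026 (permutation p of 0.994). Among 13660 named genes, the ratios most like those of Efna5 over the 10 animals were those of Tor4a (r of 0.972), Dmrtc1c1 (0.948) and Slc22a6 (0.942). The ratios most like those of the brighter Epha4 probe were those of Dip2c (r of 0.911), Stx1a (0.907) and Ciao3 (0.877). These are the highest of many correlations over 10 animals and are given as descriptions.

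The rest of the Eph pathway was read from lists. Of 13 other EphA, EphB and ephrin-B genes, 7 were tested and 0 passed an adjusted p of 0.05 in limma in any of the 6 comparisons. At day 21 their median ratio was 0.027, with 5 of 7 above 0 (50.3% of all probes), and at day 7 it was -0.040, with 3 of 7 above 0 (48.4%). Efnb1, a transmembrane ephrin, had the highest ratio at both days, 0.17 ± 0.11 at day 21 and 0.16 ± 0.11 at day 7 (SE), with an unadjusted p of 0.0509 and an adjusted p of 0.761 for the mean of both days in limma. Ephb6, a receptor without kinase activity, had the lowest ratio at both days, -0.10 ± 0.076 at each (SE). At limma's unadjusted p under 0.05, sprouting neurons were higher at day 21 in 0 of 7 (1.88% of all probes) and lower in 0 (2.89%). At day 7, 0 were higher (3.35%) and 1 lower (2.76%), Epha10 at -0.086 (unadjusted p of 0.0459, adjusted 0.812 in limma). Of the levels, 1 was lower at day 21 in sprouting (10.4% of all probes) and 2 in non-sprouting neurons (10.7%), with 0 higher. Ephb2, a receptor at excitatory synapses, had day 21 minus day 7 level estimates of -0.30 in sprouting and -0.29 in non-sprouting neurons. Limma's unadjusted p for them was 0.026 and 0.0209, and its adjusted p 0.278 and 0.24.

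Of 41 effectors of forward signalling, 37 were tested and 0 passed an adjusted p of 0.05 in limma. At an unadjusted p under 0.05, 0 were higher and 2 lower in sprouting neurons at day 21, against 1.88% and 2.89% of all probes, and 3 were higher and 1 lower at day 7, against 3.35% and 2.76%. The median ratio of the list was -0.0019 at day 21 and 0.025 at day 7. Chn1 encodes alpha-chimaerin, the GTPase-activating protein through which EphA4 turns off Rac in mouse corticospinal axons, and it had the highest ratio of the list at day 7, 0.40 ± 0.087 (SE). Limma's unadjusted p for Chn1 at day 7 was 0.00092 and its adjusted p 0.562. Its day 21 minus day 7 difference was -0.31 ± 0.12 (SE, adjusted p of 0.921 in limma). Cfl1, the actin-severing protein cofilin, had 0.21 at day 7. At day 21 the highest ratios were those of Acp1, a phosphatase, at 0.17 and Crk, an adaptor, at 0.12, and the lowest those of Ptpn11 at -0.27 and Limk1, a kinase of cofilin, at -0.20.

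Of 20 genes for reverse signalling, shedding of ligand or receptor, and clearance, 18 were tested and 0 passed in limma. The median ratio was -0.037 at day 21 and 0.033 at day 7. Slc1a2 and Slc1a3, the astrocyte glutamate transporters that ephrin-A3 and EphA4 regulate in mice, had the highest ratios at day 21, 0.16 ± 0.073 and 0.14 ± 0.080 (SE), with limma's adjusted p at 0.915 for both. Both genes are also on the astrocyte marker list, of which 9 of 9 were above 0 at day 21 (50.3% of all probes) and 2 of 9 at day 7 (48.4%). Ntrk2, a neurotrophin receptor that can partner ephrin-A, had a ratio of -0.17 at day 21. Mmp2 and Mmp9, secreted proteases, had the highest at day 7, 0.29 ± 0.28 and 0.25 ± 0.20 (SE).

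**Figure D5:**
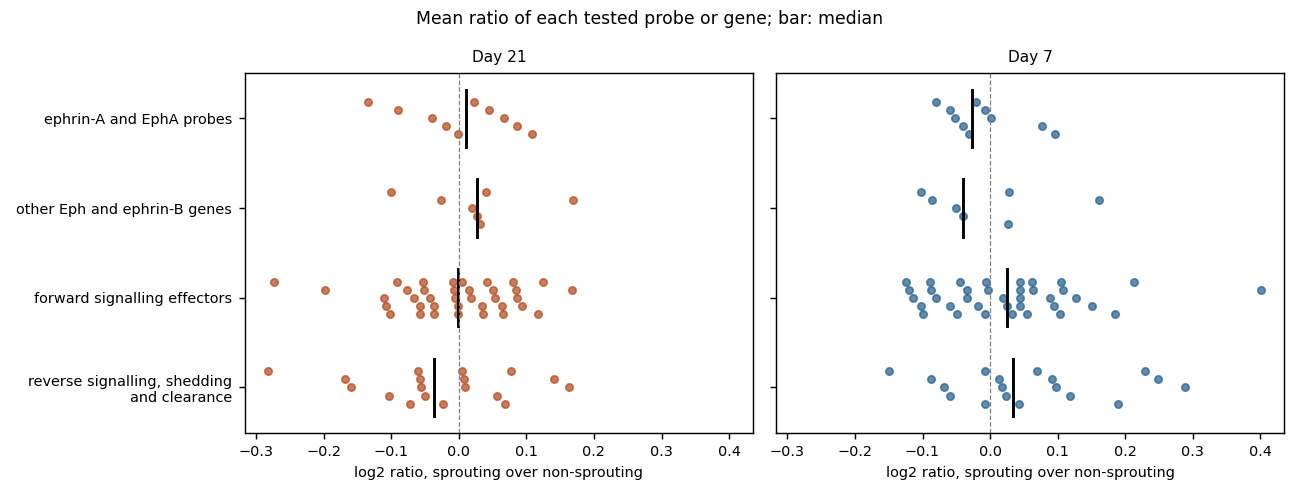
Mean log2 sprouting over non-sprouting ratio (horizontal axis) at day 21 and day 7 of the 10 ephrin-A and EphA probes, 7 other Eph and ephrin-B genes, 37 forward effectors and 18 genes of reverse signalling, shedding and clearance, with a bar for each median. All medians lie near 0, between -0.037 and 0.027 at day 21 and between -0.040 and 0.033 at day 7, and Chn1 at 0.40 stands farthest out at day 7.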

How the data were processed

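Members and gene lists were chosen with earlier results of these data known. Per the file headers, the scanner files are output of Agilent Feature Extraction 9.1.3.1 and give, for every spot, a linear mean intensity, a background intensity and quality flags. The deposited log10 ratio of red over green carries that program's own corrections, per the file headers, and was an alternative. The authors' deposited table of log2 ratios was another. The scale and red over green direction were read by setting each column against its own array (r of 0.891 to 1, slopes of 0.862 to 1.69, column medians of -0.015 to 0.0152), while its normalization and centring are not given in the sources used here. It holds 20 more columns that repeat the names of the first set, and these stayed unused.

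Intensities were corrected with normexp (offset 50) and loess within each array in limma 3.58.1 (R 4.3.3, data.table version 1.17.8), with control and outlier spots at weight 0. Outlier spots (11 to 4088 per array) were then set to missing, and spots of 1 probe were averaged. Dye-swap ratios were turned, and the 2 arrays of an animal were averaged into 1 replicate. Levels came from the same channels after Aquantile scaling between arrays. Testing required a signal well above background in 3 or more animals of a day, on both their arrays, for 1 cell type, which 34225 of 41012 probes had. Tests were limma's lmFit and eBayes over all tested probes with Benjamini-Hochberg adjustment at 0.05, both days in 1 fit. Single values also had two-sided exact sign-flip tests within a day (smallest p 0.0625) or exact permutations of the days (smallest p 0.00794), and correlations had 1e+05 permutations. The fits across probes were tested on simulated data.

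Probes were named by accession (10658), symbol (4587), synonym (3877) or description (215) through a RefSeq table of GRCr8, and 21675 had no name. Both Epha4 probes were named by synonym and both Efna3 probes by description. Coordinates are left out because the array files name no genome build, and no probe or protein sequence was used here. Every member probe was accounted for, with values by animal for the brightest tested probe of a gene and for any probe at an unadjusted p under 0.05, and the 2 highest and 2 lowest genes of each list were eligible to be named, of which some are not reported here. In the lists each gene was read through its brightest tested probe. The 5 scan dates were taken as batches, of which 1 held both days. The labels give both days replicates 1 to 5, but animals with the same number had ratio deviations with correlations of -0.182 to 0.0439, and the days are separate animals, so numbers did not pair them.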

Additional observations from a re-analysis of the deposited data

Results flagged for a closer look

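Among 60 groups of 5 animals examined (10 probes, ratio and both levels, 2 days), 2 held an animal far from the other 4, where about 1 in 20 groups, or 3 here, would by chance. Both were levels of the Efna5 probe. In sprouting neurons at day 7, replicate 3 had a level of 6.28, while the other 4 animals lay between 6.543 and 6.645. Its non-sprouting level was 6.337. In non-sprouting neurons at day 21, replicate 5 had 7.323, while the other 4 lay between 6.417 and 6.54. In that animal the sprouting level was 7.223, so the ratio of the cell types, at -0.10, did not stand apart. No probe had every animal of one day above 0 and every animal of the other day below 0.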

How the results depend on the processing

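No ephrin-A or EphA probe passed an adjusted p of 0.05 in any of 1192 values under the alternatives, where the smallest was 0.065, and 124 of these values, none of them called, had another sign than the value reported. Over all probes the count past that threshold, 0 in every comparison, became 1 at day 7 and 1 for the mean of both days without background correction. For that mean it was 1 each with the authors' deposited table, no filter on dim probes, 1 probe per gene or scan date as a random block, and 134 with dye-swap arrays alone. With 20 arrays taken singly and the animal as a random block it was 13 at day 7, 2 at day 21, 1 for the difference and 8 for the mean. Leaving out 1 animal at a time gave 0 to 1 at day 7, 0 to 96 for levels in sprouting neurons and 0 to 469 for levels in non-sprouting neurons (96 and 469 without day 21 replicate 1, 1 without day 7 replicate 5), and 0 in the other comparisons. The causes were not tested. A replicate block, with numbers that did not pair the animals, left the count at 0 for the difference of the ratio and both level comparisons. It changed no call of a member. Only 6434 probes were above background on all 20 arrays, and of the 10 probes tested only the brighter Epha5 probe was among them, so the other ratios rest partly on dim spots.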
